A study of Gallus gallus with 3 samples.

Results

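Mitochondria make a small set of respiratory chain proteins on their own ribosome, whose proteins, like most subunits of the chain, are encoded in the nucleus and imported. The chain passes electrons from NADH dehydrogenase (complex I, NDUF genes) and succinate dehydrogenase (complex II, SDH genes) through cytochrome bc1 (complex III, UQCR genes) to cytochrome c oxidase (complex IV, COX genes), and ATP synthase (ATP5 genes) uses the proton gradient that results. Assembly factors insert cofactors into these complexes or hold intermediates together without staying in the finished enzyme.

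The nuclear genes of this system were examined in DT40, a chicken lymphoma line of B-cell origin in which genes are easily targeted. Members were the genes on the array whose chicken symbol begins with MRPL, MRPS, NDUF, UQCR, ATP5 or SDH, or with COX and a digit. The rule gave 77 genes with 160 probes, out of 4194 named genes measured on every array. There were 18 MRPL and 18 MRPS genes of the mitochondrial ribosome, 17 NDUF, 4 SDH, 3 UQCR, 10 COX and 7 ATP5 genes. All 77 on the array were well above background on all 3 arrays, so no member was lost to that filter. The RefSeq table lists 172 symbols of this kind, and the other symbols were not matched to a probe and are not analysed here. The mitochondrially encoded subunits COX1 to COX3 had no named probe (0 genes).

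Total RNA was measured once for each of 3 lines: H2A.Z double-knockout (DKO) cells carrying H2A.Z1ΔC, which lacks the C-terminus of the histone variant and is called truncated here, DKO cells with the complete H2A.Z1, called full-length, and unmodified wild-type DT40. By these labels both DKO lines lack the endogenous H2A.Z genes, and wild type carries no introduced protein. Each group was 1 single-colour array of 1 cell line, so groups could not be tested against each other, replicate error is unknown, and precision is limited by the number of arrays. Clone number, promoter and level of the introduced proteins are not given in the sources used here, and loss of a gene product cannot be told apart from differences between lines.

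A level is the log2 of the processed signal above the 75th percentile of its array, a difference is a difference of levels, and a gene was called at a difference of 1 (2-fold) or, as the alternative, at 1.5-fold. Between 68.7% and 72.6% of 43596 probes were above background, and the truncated array lay on slide 2, the other arrays on slide 1, so slide and truncation cannot be told apart. Probes spotted repeatedly gave SDs of 0.0646 to 0.0739 for a difference (41 probes), which covers spotting and scanning only. H2AFZ, the gene of H2A.Z1, had levels of -0.21, 0.81 and 5.87 at probe 1 and -0.85, -0.31 and 6.17 at probe 2 on the truncated, full-length and wild-type arrays, low on both DKO arrays as labelled; whether these probes also detect the introduced H2A.Z1 is not known. Of 12 B-cell markers 10 were measured. At or above the percentile on the same arrays lay 2051, 2063 and 2056 of 4194 named genes, and 5, 6 and 5 of these 10 markers. They ranged up to CD79B, a chain of the B-cell receptor, at 4.83, 4.88 and 4.68, and down to the B-cell factor PAX5 at -3.06, -2.42 and -2.57 and the receptor CXCR4 at -2.75, -2.69 and -2.43. Of the 10, 8 were below 0 in truncated over full-length, beside 48.1% of all named genes, and 2 were lower by 1.5-fold, beside 5.13%. With the matrix values described below it was 6 of 10, beside 47.8%, and 0 of 10, beside 3.51%. Of 4 measured T-cell markers CD3D was high, at 4.06, 4.62 and 4.83, while CD28 and CD8A lay between -6.25 and -4.22. CD3E read -5.51, -3.50 and -5.60, so full-length stood 2.09 above wild type, or 3.72 with the matrix value. The 3 erythroid, 2 myeloid and 2 fibroblast markers measured were all below the percentile on every array. At these low levels HBA1, COL3A1 and COL1A2 differed past 2-fold, and the others did not. HBA1 stood at -1.23 (truncated) and -1.43 (full-length, -1.80 with the matrix value) from wild type. COL3A1 stood at -1.17 from it on the truncated array. COL1A2 stood at 1.83 from it on the full-length array, or 0.22 with the matrix value. The part of these markers in the members' differences was not tested. The series matrix gives a second set of values, which for the full-length sample is no multiple of its scanner signal (robust SD of the log2 ratio 0.322 over 29169 spots) and whose source is unknown. Values are scanner values unless the matrix is named, and a value of the full-length sample with no matrix value beside it rests on the scanner alone.

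Members gave high signals and most differed little between the lines. Of 4194 named genes 2051, 2063 and 2056 lay at or above that percentile on the truncated, full-length and wild-type arrays. Of the 77 members 73 did so on every array. The 4 others were ATP5S, COX10, MRPS14 and NDUFV3. Their levels on the truncated, full-length and wild-type arrays were -0.04, -0.13 and -0.14 for ATP5S, a factor associated with ATP synthase. COX10, which makes the haem A precursor of cytochrome c oxidase, had -1.57, -1.34 and -1.47. This is a mean of 3 probes, of which the brightest read 2.67, 2.64 and 2.49, above the percentile. MRPS14, a small-subunit protein, had levels of -1.11, -0.79 and -0.83, and NDUFV3, an accessory complex I subunit, had -1.57, -1.17 and -1.08.

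In full-length over wild type the median difference of the members was -0.03, beside -0.02 over all named genes. In truncated over full-length it was 0.07, beside 0.01. In truncated over wild type it was 0.02, beside -0.00. With the full-length matrix values the first median was 0.07 and the second -0.03, so neither sign held across the sources. The 3 comparisons share arrays and are not independent.

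The robust SD of the members' differences was 0.100 in full-length over wild type, 0.131 in truncated over full-length and 0.217 in truncated over wild type. Over all named genes it was 0.229, 0.321 and 0.360 in the same order. Restricted to genes brighter than the median probe it was 0.103, 0.121 and 0.218 for the members, beside 0.186, 0.268 and 0.305. This filter kept 3005 of 4194 named genes and did not match them to the members by level. The members' median levels were 3.59, 3.36 and 3.46 on the truncated, full-length and wild-type arrays, beside -0.07, -0.08 and -0.09 over all named genes. For 42 cytosolic ribosomal protein genes, at median levels of 7.20, 6.97 and 7.01, the robust SDs were 0.050, 0.157 and 0.118. Differences within 1.5-fold were found for 97.4%, 97.4% and 94.8% of the members, beside 91.0%, 87.3% and 82.3% of all named genes. With the full-length matrix values the robust SD of the members was 0.158 in full-length over wild type and 0.162 in truncated over full-length, beside 0.311 and 0.25 over all named genes. Differences within 1.5-fold were then found for 97.4% and 98.7% of the members, beside 85.5% and 91.8%. These are descriptions of 3 arrays without a test of the difference.

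**Figure D1:**
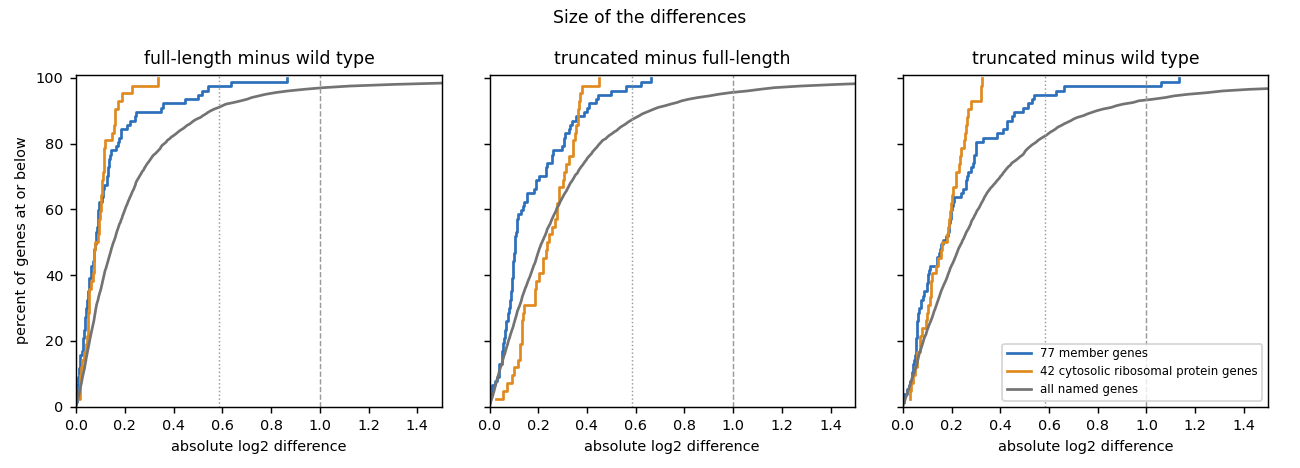
Cumulative share of genes (vertical axis, percent) by size of the log2 difference (horizontal axis) in each comparison, for the 77 members (blue), 42 cytosolic ribosomal protein genes (orange) and all named genes (grey). The dashed line marks 2-fold and the dotted line 1.5-fold, and the members' curve lies above that of all named genes at 1.5-fold in each panel.

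The 55 members with several probes gave a check within the arrays. The pooled SD between probes of a gene was 0.0598 in full-length over wild type, 0.148 in truncated over full-length and 0.163 in truncated over wild type, whereas over 2729 named genes it was 0.153, 0.225 and 0.259. With the matrix values the first and second of these were 0.135 and 0.0939 for the members, beside 0.279 and 0.243. The named genes were not matched to the members by level, and the members' median levels were higher, as given above. All probes lay on the same side for 37, 34 and 29 of the 55 members in that order. Among members that differed by 0.25 or more it was 6 of 6, 11 of 12 and 15 of 16. These were selected by the mean of the same probes, which favours 1 side, so their counts are no separate check. The widest range belonged to COX19, a factor of cytochrome c oxidase assembly that takes part in copper delivery. Its probe 1 read 2.08, 1.97 and 1.99 on the truncated, full-length and wild-type arrays and its probe 2 -1.63, -0.92 and -0.95, so only probe 2 was low on the truncated array. COX10 had a probe with 5 spots, whose median spot read 2.68, 2.65 and 2.49 on these arrays, so truncated was slightly above the others there, while its other probes put truncated below them. Those other probes were dim, at -4.18 and -3.21 on the truncated array. With the full-length matrix values they put truncated above full-length, by 0.30 and 0.03.

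At 2-fold, 0 of 77 members were called in full-length over wild type, where 3.08% of all named genes were called in either direction. It was again 0 of 77 in truncated over full-length, beside 4.36%. In truncated over wild type 2 members were called, both lower, beside 3.41% of named genes called lower and 6.72% in either direction. These were MRPL33 and SDHAF2.

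MRPL33, a protein of the large subunit of the mitochondrial ribosome, had levels of 2.60 (truncated), 3.22 (full-length) and 3.74 (wild type). Its differences were -1.14 (2.20-fold) for truncated over wild type, -0.62 for truncated over full-length and -0.51 for full-length over wild type. It was thus lowest on the truncated array and intermediate on the full-length array, at both probes. Probe 1 read 1.60, 2.52 and 3.07 on the 3 arrays in this order. Probe 2 read 3.61, 3.93 and 4.40, a difference of -0.80 that alone does not reach 2-fold. In the matrix values the full-length level was 2.91, which put full-length over wild type at -0.83 and truncated over full-length at -0.31.

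SDHAF2, the factor that helps to attach flavin to the catalytic subunit SDHA, had levels of 2.14 (truncated), 2.70 (full-length) and 3.21 (wild type). The differences were -1.06 (2.09-fold) for truncated over wild type, -0.56 for truncated over full-length and -0.50 for full-length over wild type. The probes agreed closely, with differences of -1.09 and -1.04 between truncated and wild type. The matrix level of the full-length sample was 2.71, near its scanner level.

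At 1.5-fold, 2 members were called in full-length over wild type, both lower, beside 5.87% of named genes lower and 9.01% in either direction. They were COX20, at -0.87, and MRPS18A, at -0.64. In truncated over full-length COX20 was called higher, at 0.66, and MRPL33 lower, beside 7.53% of named genes higher and 5.13% lower (12.7% together). In truncated over wild type 4 members were called lower, beside 8.94% (17.7% in either direction): MRPL33, SDHAF2, NDUFAF2 at -0.66 and MRPS6 at -0.63. No member was called higher there (0 genes), beside 8.75% of named genes. Both NDUFAF2 and MRPS6 rest on 1 probe, as does MRPS18A. The calls that involve the full-length sample depended on the source. With its matrix values full-length over wild type called MRPS18A at -0.64 and MRPL33 at -0.83, beside 7.58% of named genes lower, and COX20 was not called, at 0.10. Truncated over full-length then called MRPS14 alone, at -0.71 by its 1 probe and beside 3.51% lower. Neither COX20 nor MRPL33 was called, both at -0.31.

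An array stood apart in a gene when it differed past the threshold from both others in the same direction while those did not differ from each other. At 2-fold no member did so (0 genes), beside 2.29% of named genes for the truncated, 0.644% for the full-length and 1.34% for the wild-type array. At 1.5-fold MRPL33 stood apart as lower on the truncated array, beside 2.43% of named genes, and COX20 as lower on the full-length array, beside 1.14%. Neither did so with the full-length matrix values, where MRPL33 stood apart as higher on the wild-type array, beside 3.98% of named genes.

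**Figure D2:**
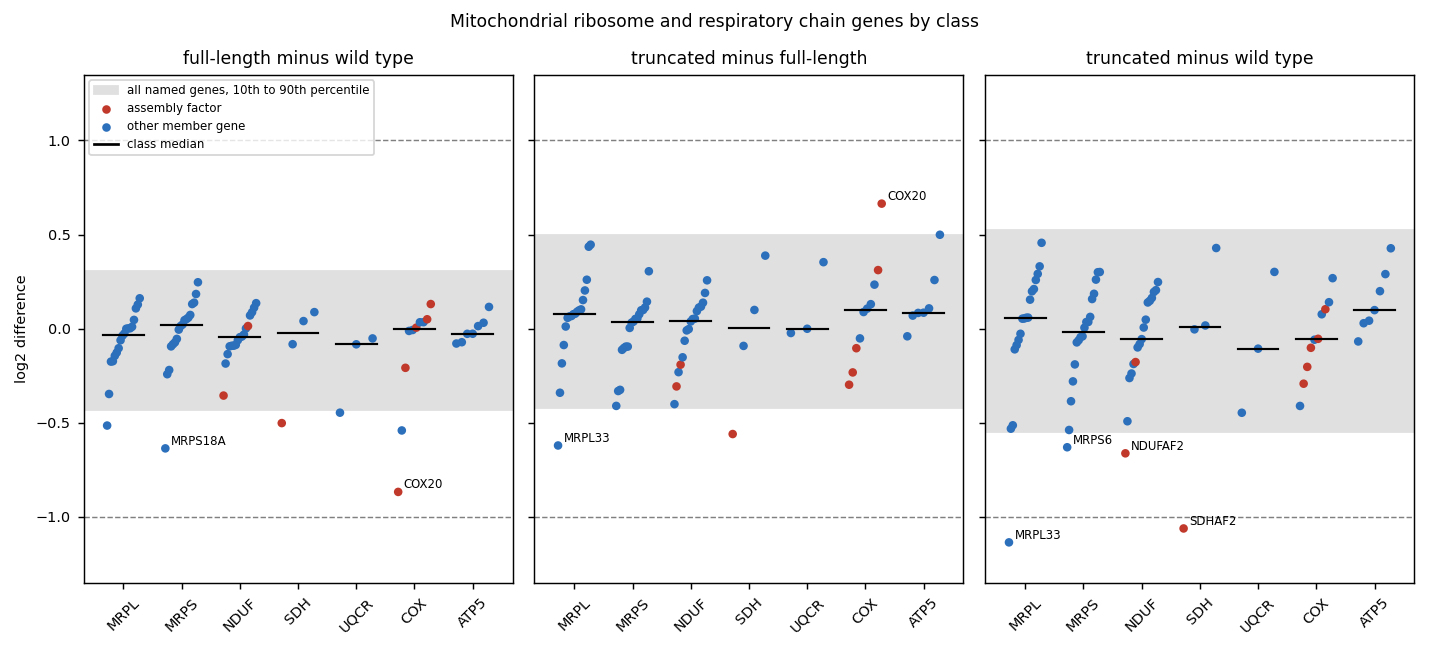
Log2 difference (vertical axis) of each member in the 7 symbol classes, with assembly factors in red, the other members in blue and class medians as bars. The grey band spans the 10th to 90th percentile of all named genes and the dashed lines mark 2-fold. Most members lie inside the band, and genes past 1.5-fold are named.

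Among the large-subunit genes, the MRPL class had medians of -0.03 in full-length over wild type, 0.08 in truncated over full-length and 0.06 in truncated over wild type, of which the first was 0.02 and the second 0.03 with the matrix values. Beside MRPL33 its extremes were MRPL45 and MRPL44. MRPL45, a protein near the exit of the human large subunit's tunnel, had levels of 3.80 (truncated), 3.36 (full-length) and 3.35 (wild type). It was the highest member in truncated over wild type, at 0.46, and stood 0.45 above full-length, or 0.25 above it in the matrix values. MRPL44, which carries a ribonuclease-like fold, had levels of 4.99, 4.89 and 4.73 in the same order of arrays, and its 0.16 was the highest MRPL difference of full-length from wild type, or 0.26 with the matrix value, while MRPL33, MRPL13, MRPL21 and MRPL46 lay further below wild type, at -0.51, -0.35, -0.17 and -0.17. MRPL41 stood 0.44 higher on the truncated than on the full-length array, and -0.14 from wild type on the full-length array, with both probes highest on the truncated array. With the matrix values these differences were 0.20 and 0.09, so the sign against wild type turned.

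The MRPS class had medians of 0.02, 0.03 and -0.02 in these comparisons, and with the matrix values the first was 0.10 and the second -0.09, with its sign turned. Human structures place MRPS18A and MRPS30 in the large subunit despite their symbols. MRPS18A had levels of 2.25 (truncated), 2.15 (full-length) and 2.79 (wild type), low in both DKO lines, and its matrix level for full-length was also 2.15. MRPS30, at 1 probe, read 2.71, 2.66 and 2.41. It was higher in both DKO lines by 0.30 (truncated) and 0.25 (full-length, 0.11 with the matrix value). The small-subunit protein MRPS6 read 1.78, 2.19 and 2.41, with the lowest level on the truncated array, which was 0.41 below full-length. MRPS35, also of the small subunit, read 2.27, 1.96 and 1.97, with the truncated array 0.31 higher than full-length, a difference of -0.02 in the matrix values. MRPS21, of the small subunit, varied little, with 6.23, 6.20 and 6.27.

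MRPS11 and MRPL46 neighbour each other in the gene order. MRPS11, of the small subunit, had levels of 4.87 (truncated), 5.20 (full-length) and 5.25 (wild type), and MRPL46, of the large subunit, had 2.58, 2.93 and 3.10. Both were lower on the truncated array, at -0.33 and -0.34 from full-length and at -0.39 and -0.51 from wild type. The differences from full-length were -0.16 for MRPS11 and -0.34 for MRPL46 with the matrix values. In another adjacent pair SDHB and MRPS16 differed from wild type by 0.02 and -0.07 on the truncated array. MRPS10 and COX7A2L, also next to each other among the measured genes, lay on opposite sides of wild type. They differed from it by -0.19 and 0.14 on the truncated array and by -0.24 and 0.03 on the full-length array. With the matrix values both full-length differences were 0.14.

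Complex I genes had medians of -0.05 in full-length over wild type, 0.04 in truncated over full-length and -0.06 in truncated over wild type. With the matrix values the first was 0.10 and the second -0.07, so both signs turned. NDUFAF2, an assembly factor related to the subunit NDUFA12, had levels of 0.82 on the truncated and 1.13 on the full-length array, which lay -0.66 and -0.36 from wild type. NDUFA12 itself read 4.60, 4.54 and 4.68 and differed from wild type by -0.08 on the truncated and -0.14 on the full-length array, where the matrix gave -0.01. NDUFV3 had the lowest value of the class in truncated over full-length, at -0.40. Of the core subunits, NDUFS3 stood at 0.25 and 0.14 from wild type on the truncated and full-length arrays, NDUFS1 at 0.16 and 0.11, and NDUFV1, which binds NADH, at 0.14 and 0.00. The matrix differences of full-length from wild type were 0.13, 0.16 and 0.16 for these 3 genes. NDUFA6, an accessory subunit, had the highest difference of truncated from full-length in the class, at 0.26, which was 0.03 in the matrix values. NDUFB5, another accessory subunit, read 6.02, 5.83 and 5.87 on the truncated, full-length and wild-type arrays, and its 0.19 between truncated and full-length was 0.04 in the matrix values.

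In complex II the catalytic subunit SDHA and its flavination factor lay on opposite sides. SDHA had levels of 4.65 (truncated), 4.26 (full-length) and 4.22 (wild type), at 1 probe, so truncated was 0.43 above wild type where SDHAF2 was 1.06 below it. The iron-sulphur subunit SDHB read 3.99, 3.89 and 3.97 and the membrane anchor SDHD 4.42, 4.51 and 4.42. By the matrix values SDHD on the full-length array lay 0.31 above wild type, and truncated at -0.32 from full-length, against 0.09 and -0.09 by the scanner. SDHA and SDHAF2 kept these directions against wild type with the matrix values, where full-length stood at 0.25 and -0.50.

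In complex III, UQCRFS1, the Rieske iron-sulphur protein, had levels of 4.71 (truncated), 4.71 (full-length) and 5.16 (wild type). Both DKO arrays lay at -0.45 from wild type, a 1.36-fold difference, and were lower at all of its 3 probes. The small subunit UQCR11 read 4.46, 4.10 and 4.16, its 0.35 between truncated and full-length being 0.06 in the matrix values, and the hinge-like protein UQCRHL 5.65, 5.67 and 5.75.

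In complex IV, COX4I1, a nuclear-encoded subunit that binds adenine nucleotides, had levels of 6.10 (truncated), 5.97 (full-length) and 6.51 (wild type). Truncated was -0.41 and full-length -0.54 from wild type, or -0.34 for full-length in the matrix values. The other subunits stayed nearer to wild type: COX6C read 6.37, 6.14 and 6.11, and COX6A1 and COX7A2 differed from wild type by 0.08 and -0.06 on the truncated array and by -0.01 each on the full-length array. COX20, a chaperone for a mitochondrially encoded oxidase subunit, had levels of 0.94 (truncated), 0.28 (full-length) and 1.15 (wild type). The full-length scanner array was low at both probes. In the matrix values the full-length level was 1.25, the largest gap of any member between the sources, and then full-length lay 0.10 above wild type and truncated -0.31 from full-length.

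ATP synthase genes had the narrowest range against wild type on the full-length array, where all 7 lay between -0.08 (ATP5G3) and 0.12 (ATP5B). By the matrix values they spread from -0.04 (ATP5F1AZ) to 0.47 (ATP5I), with a median of 0.21. On the truncated array 6 of 7 were above full-length, beside 51.9% of all named genes, with a median of 0.08. With the matrix values it was 3 of 7, beside 52.2%, with a median of -0.01. ATP5J2, the membrane subunit f, had levels of 5.73 (truncated), 5.23 (full-length) and 5.30 (wild type). Its difference of 0.50 between truncated and full-length was the largest among subunits of the chain, with 0.22 in the matrix values. Subunit e, ATP5I, read 5.43, 5.18 and 5.14, and the matrix value turned its 0.26 between truncated and full-length to -0.18. The catalytic beta subunit ATP5B read 5.57, 5.49 and 5.37. Its partner in the catalytic head, the alpha subunit ATP5F1AZ, read 3.77, 3.81 and 3.83, and the ring subunit ATP5G3 read 6.82, 6.71 and 6.79. ATP5F1AZ has a near-identical copy on the W chromosome and ATP5G3 is among several genes of the same subunit, so their probes may read more than 1 gene.

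Sorted by role, the 31 chain subunits had medians of -0.04 in full-length over wild type, 0.08 in truncated over full-length and 0.03 in truncated over wild type, none past 1.5-fold (0 genes in each comparison), beside the 9.01%, 12.7% and 17.7% of all named genes. The 8 assembly factors had medians of -0.10, -0.21 and -0.19, and 7 of 8 lay below 0 in truncated over wild type, beside 50.1% of all named genes. Besides SDHAF2, NDUFAF2 and COX20 these were COX19 at -0.29, NDUFAF5, a hydroxylase, at -0.18, COX10 at -0.10 and COX16 at -0.05, while COX15, the haem A synthase, stood at 0.10. The brightest probes of COX19 and COX10 put truncated above wild type, by 0.09 and 0.18, and the probes of COX16 gave 0.02 and -0.13. Of 7 measured assembly factors of the chain under other symbols, 4 lay below 0 and 3 above in truncated over wild type. The 36 mitoribosomal genes had medians of -0.00, 0.06 and 0.04. With the full-length matrix values the medians in full-length over wild type were 0.10 for chain subunits, -0.14 for assembly factors and 0.06 for mitoribosomal genes. They were then -0.03, -0.12 and -0.00 in truncated over full-length, so the signs of the chain subunits and mitoribosomal genes turned in both and those of the assembly factors in neither. The assembly factors were dimmer, with median levels of 1.08, 1.01 and 1.32 on the truncated, full-length and wild-type arrays. The chain subunits had median levels of 4.65, 4.54 and 4.45. Role and level thus cannot be told apart here, and no test of the difference between these roles was possible.

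**Figure D3:**
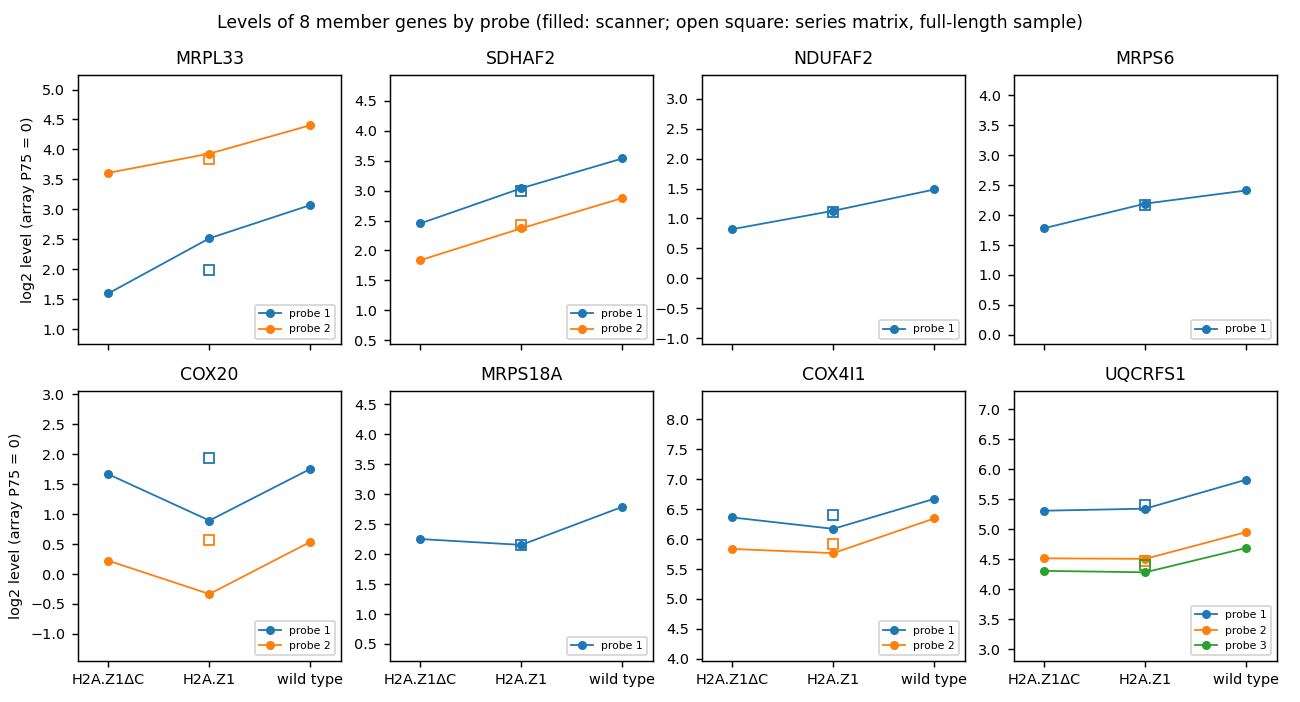
Level (vertical axis, log2 signal with the array's 75th percentile at 0) of each probe of 8 members on the truncated (H2A.Z1ΔC), full-length (H2A.Z1) and wild-type arrays. Filled points are scanner values and open squares the series matrix value of the full-length sample; all panels span the same range. COX20 is the gene whose 2 squares lie far above the points.

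Several of the lower members sat among neighbours that were lower too. For every placed gene the median difference of the 10 measured named genes on each side was taken in the RefSeq gene order, with a limit of -0.25 for a lower stretch that was chosen after the values were seen. In full-length over wild type, 168 of 4159 placed genes (4.04%) lay in such a stretch and 134 of these (79.8%) were themselves lower by 0.25 or more. Of the 77 members 6 did (7.79%): COX20, COX4I1, MRPL13, MRPL33, MRPS18A and UQCRFS1, and all 6 were themselves lower by 0.25 or more. Elsewhere 2 of 71 members (2.82%), NDUFAF2 and SDHAF2, were lower to that extent, beside 15.4% of all named genes outside such stretches. In truncated over wild type 5 of 77 members (6.49%) lay in such a stretch, the same genes without COX20, beside 162 of 4159 placed genes (3.90%), and outside them 9 of 72 members (12.5%) were lower by 0.25 or more, beside 23.3%. None of the 77 members (0 genes) lay in one in truncated over full-length, beside 7 placed genes (0.168%), and 9 of 77 (11.7%) were lower to that extent, beside 20.1%. Of the members lower by 0.25 or more in truncated over wild type, 5 thus lay in such a stretch and 9 outside. Beside them, 97 and 933 of all placed genes lower to that extent did so. In a higher stretch, at a limit of 0.25, lay COX20 in truncated over full-length (1.30% of members, beside 1.47% of placed genes). In truncated over wild type it was NDUFA5 (1.30%, beside 0.793%), itself lower, and in full-length over wild type no gene. The neighbours of SDHA in truncated over wild type and of MRPL45 in truncated over full-length fell short, with medians of 0.241 and 0.249.

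The neighbours of UQCRFS1 had a median of -0.56 on the truncated and -0.56 on the full-length array against wild type. On the full-length array 19 of 20 were lower by 0.25 or more, or 17 with the matrix values. On the truncated array 14 of 20 were lower and 1 was higher to that extent. Those of COX4I1 had -0.72 and -0.47, and those of MRPL13, a large-subunit protein, -0.42 and -0.46. MRPL13 itself read 2.93, 3.11 and 3.46 on the truncated, full-length and wild-type arrays. The genes' own differences on these arrays were -0.45 and -0.45 for UQCRFS1, -0.41 and -0.54 for COX4I1 and -0.53 and -0.35 for MRPL13. These genes are shown as lower members of lower stretches, so sharing a side of wild type with their neighbours is no separate result.

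MRPL33 and MRPS18A share a stretch, MRPS18A being 6 measured genes after MRPL33. MRPL33 lay at its edge: the gene before it, BRE, differed from wild type by -0.25 on the truncated and -0.09 on the full-length array, and the gene after it, SUPT7L, by -0.62 and -0.72. The mitochondrial alanyl-tRNA synthetase gene AARS2 lies between MRPL33 and MRPS18A and differed by -0.80 and -0.65. On the full-length array MRPL33, at -0.51, lay among these values, and on the truncated array, at -1.14, it lay 0.62 below its own full-length level, while the median of its 20 neighbours was 0.02 in truncated over full-length. With the full-length matrix values MRPL33 stood at -0.31 and its neighbours at 0.10 in that comparison. The brighter probe of MRPL33 alone lay at -0.80 from wild type on the truncated array, as AARS2 did.

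COX20 lay among neighbours with a median of -0.48 on the full-length array, 17 of 20 of them lower by 0.25 or more, and of -0.03 on the truncated array. In truncated over full-length the median of these neighbours was 0.46. With the full-length matrix values the same neighbours had a median of 0.07 against wild type, so the stretch around COX20 was lower in the scanner values of the full-length sample and not in its matrix values. For UQCRFS1, COX4I1, MRPL13, MRPS18A and MRPL33 the matrix values gave neighbour medians of -0.51, -0.66, -0.51, -0.36 and -0.34.

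SDHAF2 was different from its surroundings. Its 18 placed neighbours had a median of 0.14 on the truncated and -0.01 on the full-length array against wild type, and the genes on either side, TMEM138 and TMEM258, stood at 0.42 and 0.42 on the truncated array. MRPS6 and NDUFAF2 also lay outside lower stretches, with neighbour medians of 0.09 and -0.12 on the truncated array and -0.02 and -0.06 on the full-length array. What moves with these stretches was not tested.

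**Figure D4:**
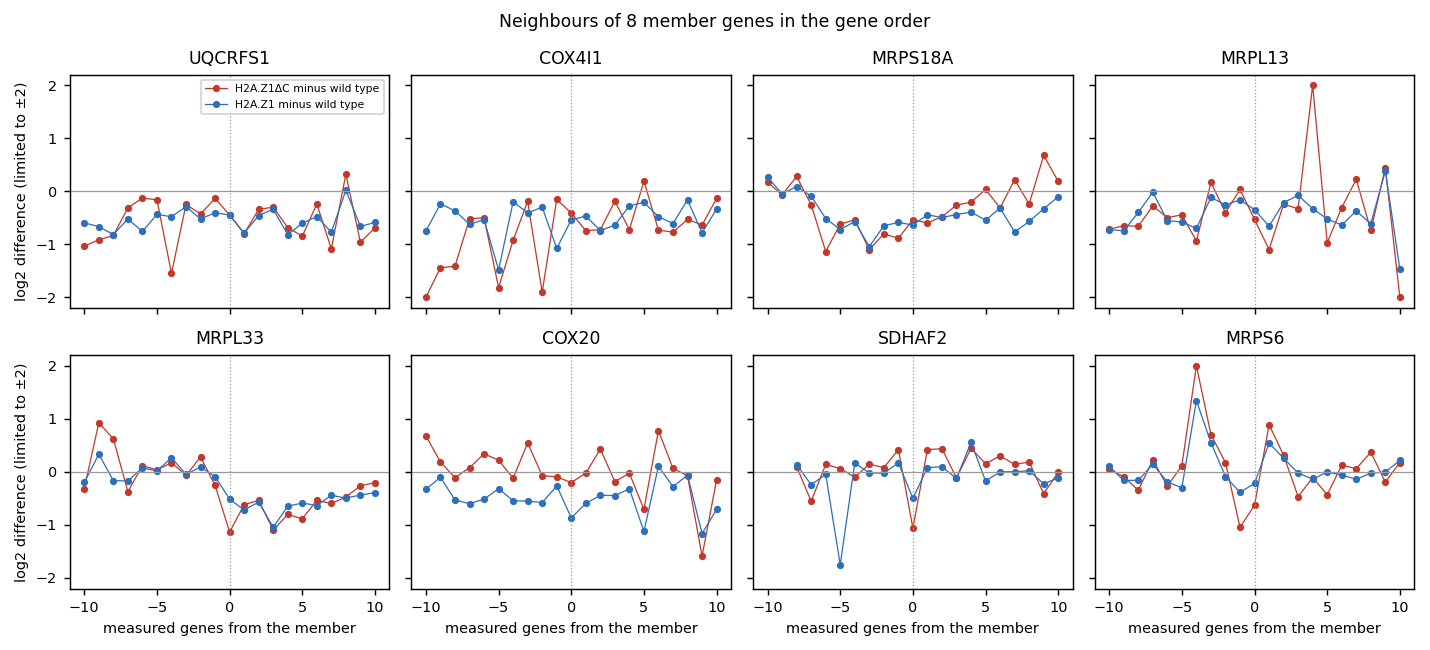
Log2 difference from wild type (vertical axis, limited to ±2) of 8 members and the measured genes around them, by position in the gene order (horizontal axis, in measured genes from the member at 0), for truncated (red) and full-length (blue). Nearly all points around UQCRFS1 and COX4I1 lie below 0, MRPL33 sits at a step, the blue points around COX20 are low while the red are not, and SDHAF2 is low while the genes next to it are not.

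The members' differences of full-length from wild type with the matrix values were set beside the scanner values. The matrix level of a member was above its scanner level by a median of 0.06, with a range of -0.35 (COX10) to 0.97 (COX20). MRPL33, SDHAF2, MRPS18A, UQCRFS1 and COX4I1 were below wild type in both sources, with matrix differences of -0.83, -0.50, -0.64, -0.40 and -0.34. ATP5I and MRPS14 had the highest matrix differences, 0.47 and 0.43, where the scanner gave 0.03 and 0.05.

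**Figure D5:**
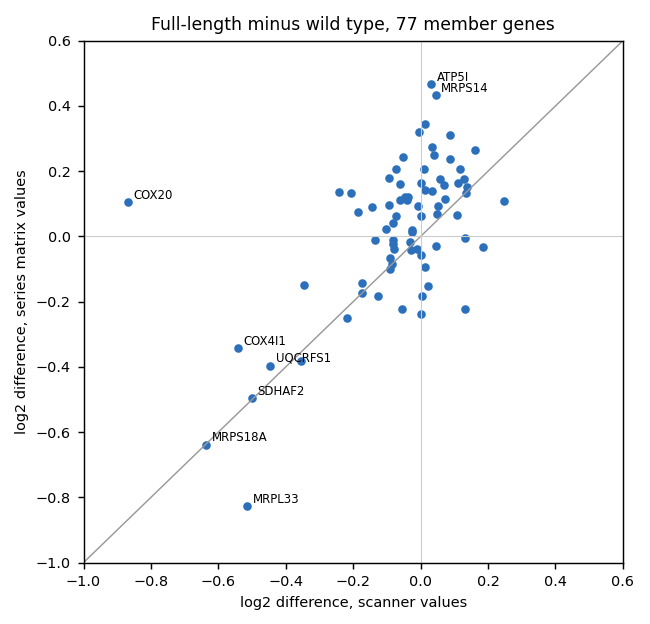
Log2 difference of full-length from wild type for the 77 members, by scanner values (horizontal axis) and by the series matrix value of the full-length sample (vertical axis). The diagonal marks equal values, and COX20 lies far above it at -0.87 and 0.10.

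Other mitochondrial gene lists are given beside the shares of all named genes called in either direction, which in truncated over wild type were 6.72% at 2-fold and 17.7% at 1.5-fold. At 1.5-fold they were 9.01% in full-length over wild type and 12.7% in truncated over full-length. None of the 12 measured genes of the tricarboxylic acid cycle was past 1.5-fold in any comparison (0 genes). Both measured chain and mitoribosome genes under other symbols lay within 1.5-fold. Of these, cytochrome c, CYCS, the electron carrier between complexes III and IV, had levels of 5.32 (truncated), 5.11 (full-length) and 4.98 (wild type). Of 7 measured assembly factors under other symbols 1 was past 1.5-fold, TIMMDC1 of complex I, with 1.60, 2.24 and 2.36 on the same arrays and -0.76 in truncated over wild type. It is also counted among the 12 measured genes of protein import, where it was the only gene past that threshold.

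Of 8 measured mitochondrial translation factors, the prolyl-tRNA synthetase PARS2 was called higher at 2-fold by its 1 probe, with levels of 4.79 (truncated), 4.57 (full-length) and 3.56 (wild type), and differences from wild type of 1.24 and 1.02. The full-length difference was 0.91 with the matrix value, which does not reach 2-fold. AARS2 was lower at 1.5-fold on both arrays, also with the matrix value, -0.98. Of 4 measured genes of coenzyme Q synthesis, the methyltransferase COQ5 had 0.37, 0.93 and 1.49, a difference of -1.12 for truncated over wild type. Of 6 genes for maintenance and expression of mitochondrial DNA, TOP1MT, a topoisomerase, was lower by 1.5-fold, at -0.66 on the truncated and -0.60 on the full-length array, and the full-length call was lost with the matrix value, -0.39.

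Of 14 listed nuclear regulators of mitochondrial genes 7 were measured. NRF1, the regulator named nuclear respiratory factor, read -0.73 (truncated), -0.77 (full-length) and -0.80 (wild type), and TFAM, the packaging and transcription factor of mitochondrial DNA, 3.16, 2.88 and 2.91. MYC read 4.41, 3.81 and 4.19, and its 0.60 between truncated and full-length was past 1.5-fold, but 0.24 with the matrix values.

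The 42 cytosolic ribosomal protein genes, the nearest other list of housekeeping genes, had medians of -0.08 in full-length over wild type, 0.24 in truncated over full-length and 0.15 in truncated over wild type. In truncated over full-length 39 of 42 were above 0 and 49 of the 77 members, beside 51.9% of all named genes. With the matrix values it was 19 of 42 and 31 of 77, beside 52.2%. With the matrix values the medians of the cytosolic list for the comparisons with full-length were 0.16 and -0.00. None of the 42 was past 1.5-fold in any comparison (0 genes). Of all named genes 9.01%, 12.7% and 17.7% were, in the order in which the 3 scanner medians are given. No test between the lists was made.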

How the data were processed

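Gene expression was measured on Agilent chicken arrays, 1 Cy3 array for each of 3 DT40 lines, grouped by label. Per the file headers, the deposited processed signal is an intensity on a linear scale, background-subtracted by Agilent Feature Extraction 11.5.1.1 within each array. The series matrix holds a second deposited intensity; its truncated and wild-type columns equalled the scanner signal times 1.53 and 1.07, its full-length column did not. Per the labels' protocols, RNA came from a kit for blood with globin removal and a low-input labelling kit, which can change transcript proportions. All per-sample columns were mapped (0 unused).

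Spots with flags were left out (7 of 43603 probes), signals were log2-transformed and scaled to the 75th percentile, and a gene is the mean of its probes above background on all 3 arrays. RefSeq accessions named 11934 probes (27.4%) for 5382 genes through a table of assembly GRCg7b; the array annotation is older, so only names and gene order were used. Members were named by rule: members called at 2-fold, class extremes, the brightest of each class and pathway genes called at 2-fold. MRPL13, MRPL41, MRPS11, MRPL46 and other members outside it, and pathway genes past 1.5-fold, were chosen after their values were seen. The members and lists were chosen with earlier results of these data known. Software was R 4.3.3 with limma 3.58.1 and Python 3.11.15. The counting step was tested on simulated data. The promoter motif search in the plan was not run, and no sequences are given. Normexp used the median signal in place of the planned mean signal. Alternatives were 11 settings of background, scaling, source, filter, probe choice and slide surface, and a 1.5-fold threshold.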

Additional observations from a re-analysis of the deposited data

How the results depend on the processing

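No paired analysis was possible because each group was 1 array, and for the same reason no replicate could be left out. At 1.5-fold the called members numbered 2 in full-length over wild type, 2 in truncated over full-length and 4 in truncated over wild type, and 1 member stood apart on the truncated and 1 on the full-length array. The genes called at 1.5-fold varied with the setting. In full-length over wild type MRPS18A was not called with normexp and quantile normalization or with the slide surface removed. In truncated over wild type MRPS6 was called with neither normexp setting, and median scaling added MRPL13 and MRPS18A. In truncated over full-length median scaling lost COX20, and the brightest probe called SDHAF2 lower in place of MRPL33. At 2-fold, with the brightest probe per gene, the truncated over wild-type count was 1, SDHAF2, since the brighter MRPL33 probe does not reach 2-fold. The other settings kept both genes, and the comparisons without a called member gave 0 at 2-fold in each setting. The members' median in truncated over full-length was -0.0287 with median scaling, -0.0288 with the matrix values of all samples and -0.0304 with those of the full-length sample alone. In full-length over wild type it was 0.0888 and 0.0674 with those matrix values. The sign of these medians thus depends on scaling and source. With only the members of 2 or more probes, added after seeing the data, counts and medians stayed near the values given. The number of members in lower stretches, also examined after seeing the data, was 5 or 6 of 77 in full-length over wild type and between 4 and 6 in truncated over wild type (with the scaling used above 5, or 6.49%, beside 3.90% of all placed genes). In truncated over full-length it was 0, but 1 with normexp and quantile normalization, quantile normalization, cyclic loess, brighter probes or the brightest probe (MRPS7), 2 with median scaling or the slide surface removed (COX4I1 and MRPS7) and 1 with 5 neighbours each side (NDUFAF2). Over 28 named members, 957 values under alternatives gave 830 within the spread between probes of a gene and 127 outside it, and the cause was not tested. Part of the 830 could not move. The background filter removed no member probe, and truncated over wild type does not use the full-length matrix values. The brightest-probe setting leaves members of 1 probe unchanged. The count of 830 is thus no measure of robustness.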
